A study of Sus scrofa with 32 samples.

Results

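The 5 genes described here, SLC34A1, SLC15A1, ENPEP, PDZK1IP1 and SLCO3A1, were followed in fetal pig liver. SLC34A1, SLC15A1, ENPEP and PDZK1IP1 encode membrane proteins best known from kidney tubule or small intestine, and SLCO3A1 encodes a broadly expressed carrier. They were chosen by their changes between days in the control arrays, and each was found on the microarray through the transcript accession of its probe. Each had 1 probe found this way, so 5 probes stand for 5 of the 1904 gene symbols that could be named on the array, and all 5 were among the 29361 probes tested. Because the control course chose the genes, its changes are given as a description without a test, and tests are given for the runt course and for runts against controls. The runts share litters with the controls, so their course is not independent of the one that chose the genes, and the comparisons of runts with controls use the same control arrays.

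The samples were livers of growth-retarded fetuses, called runts here, and of littermates labelled as controls, at gestational days 37, 50, 70 and 110. Groups in the order used below were runt day 37 and control day 37, runt day 50 and control day 50, runt day 70 and control day 70, and runt day 110 and control day 110, with 4 arrays each, 32 in all. Every fetus, controls included, came from a gilt with 1 uterine horn and ovary removed before insemination, so the controls also grew in a crowded uterus. Livers came from 4 pregnancies at each day, fetal sex is not given in the sources used here, and whole liver RNA was measured. Fewer cells of a type and less RNA per cell therefore cannot be told apart in any value below.

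A brush border is the carpet of microvilli on the absorptive face of an epithelial cell. It carries transporters that take up phosphate, sugars, amino acids and small peptides, peptidases that trim peptides outside the cell, and scaffold proteins that hold transporters in the membrane. Hepatocytes have a related surface, the canalicular membrane toward the bile, and bile duct cells have microvilli of their own. Before birth the liver is also the main site of blood formation, and it hands this over to bone marrow as birth approaches.

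Levels are log2 intensities relative to the 75th percentile of their array, so 0 is the signal at that percentile and a difference of 1 is 2-fold. Between 51.3% and 69.4% of spots on an array were well above background, no non-control spot was saturated, and arrays of 1 group correlated at 0.953 to 0.988 over probes. All 15 hepatocyte markers on the array were well above background on all 32 arrays, which bears out the tissue label. Each day had its own position on the slides, so day and array position cannot be told apart, with the exception of runt day 50 replicate 1, which lay alone on the last slide at another position and was scanned in a second session. Leaving that array out changed no call of the 5 genes.

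SLC15A1 (NM_214347), the proton-driven carrier that takes up short peptides in the small intestine, reached its highest levels in both fetus types at day 110. At day 37 SLC15A1 lay at 0.81, -0.11, -0.29 and 1.41 in runts, against -0.88, 0.26, -0.78 and 0.39 in controls. At day 50 its levels were 2.44, 1.81, 0.01 and 0.99 in runts, against -0.69, -0.74, -1.26 and -2.21 in controls. All 4 runts of that day lay above all 4 controls. The day 70 levels were 0.94, -0.86, 1.74 and -1.39 in runts, against -2.08, -1.73, 0.16 and -1.11 in controls. By day 110 they were 4.06, 3.94, 3.84 and 3.8 in runts, against 3.84, 3.49, 3.49 and 3.65 in controls. The scatter among fetuses was narrow at day 110, with an SD of 0.12 in runts and 0.17 in controls, and wide at day 70, with an SD of 1.48 in runts and 0.98 in controls. In order of mean level, runt day 110 (3.91) and control day 110 (3.62) came first, followed by runt day 50 (1.31), runt day 37 (0.46), runt day 70 (0.11), control day 37 (-0.25), control day 70 (-1.19) and control day 50 (-1.22). The single gap in this order without overlapping arrays was the one between control day 110 and runt day 50.

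In runts SLC15A1 rose 14-fold between days 70 and 110 (log2 change 3.8, SE 0.58, adjusted p = 1.21e-05), and the 4 arrays of day 110 lay above the 4 of day 70. Within the arrays of slides 1 to 3 the change was 5.21, and within slides 4 to 9 it was 3.40. Over the whole span from day 37 it rose 11-fold (3.46, SE 0.58, adjusted p = 1.57e-05), with 3.26 within slides 1 to 3 and 3.65 within slides 4 to 9. Neither earlier interval passed in runts. The change was 0.86 (adjusted p = 0.342) between days 37 and 50 and -1.20 (adjusted p = 0.13) between days 50 and 70, and without runt day 70 replicate 3 this second change was -1.75 and passed (adjusted p = 0.0277). In controls, as a description, SLC15A1 changed by -0.97, 0.03 and 4.81 over the 3 intervals.

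ENPEP (NM_214017) is glutamyl aminopeptidase, a membrane enzyme that removes acidic residues from peptide ends and converts angiotensin II to angiotensin III. Day 37 was the low point of ENPEP, at -2.85, -3.25, -3.22 and -3.66 in runts, against -3.18, -3.12, -3.35 and -3.07 in controls. At day 50 ENPEP stood at -3.48, -3.18, -1.97 and -2.58 in runts, against -1.0, -1.02, -1.05 and -0.57 in controls. All 4 runts of day 50 lay below all 4 controls, and 2 of them lay within the range of the day 37 runts. At day 70 the levels were -1.63, -0.40, -2.27 and 0.54 in runts, against -0.11, 0.23, -0.73 and -0.24 in controls. The final day had -2.55, -2.35, -1.96 and -1.86 in runts, against -2.09, -2.03, -2.34 and -1.11 in controls. Day 70 runts were the most scattered group, with an SD of 1.26 against 0.40 in controls, and their highest array lay above every control. Ranked by mean, control day 70 (-0.21) led, then control day 50 (-0.91), runt day 70 (-0.94), control day 110 (-1.89), runt day 110 (-2.18), runt day 50 (-2.80), control day 37 (-3.18) and runt day 37 (-3.24), and each neighbouring pair overlapped.

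In runts ENPEP did not pass between days 37 and 50 (0.44, SE 0.40, adjusted p = 0.5). It rose 3.64-fold between days 50 and 70 (1.86, SE 0.40, adjusted p = 0.00139), although the array ranges of the 2 days overlapped. Within slides 4 to 9 this rise was 1.44, and within slides 1 to 3, with 1 runt array at each of the 2 days, it was 3.12 and did not pass (adjusted p = 0.184). After the normexp background correction, an alternative that models the background of each array, it was 0.63 and did not pass (adjusted p = 0.165). It fell 2.36-fold between days 70 and 110 (-1.24, SE 0.40, adjusted p = 0.0233) and stood 2.09-fold above its day 37 level at day 110 (1.06, SE 0.40, adjusted p = 0.0282). Both of these calls were narrow. The fall was -0.74 (adjusted p = 0.139) without runt day 70 replicate 4, -2.45 within slides 1 to 3 and -1.01 (adjusted p = 0.155) within slides 4 to 9. The change from day 37 was 1.53 within slides 1 to 3 and 0.60 (adjusted p = 0.364) within slides 4 to 9, and after the normexp correction it was 0.13 (adjusted p = 0.772). In controls, as a description, ENPEP changed by 2.27 between days 37 and 50, by 0.70 up to day 70 and by -1.68 up to day 110.

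PDZK1IP1 (NM_001001769) is a small membrane protein that binds the scaffold protein PDZK1 and is abundant in proximal tubule. Of the 5 genes it had the largest decrease over the whole course. At day 37 PDZK1IP1 measured 2.06, 3.21, 1.68 and 2.72 in runts, against 2.44, 1.87, 1.56 and 3.26 in controls. Day 50 gave 3.31, 2.45, 3.44 and 2.85 in runts, against 2.70, 2.69, 2.91 and 2.73 in controls. These 4 groups overlapped one another. At day 70 it had 1.17, 1.13, 2.02 and -0.85 in runts, against -0.58, 0.18, 0.49 and 0.04 in controls. By day 110 PDZK1IP1 was at -0.52, -2.51, -2.76 and -2.54 in runts, against -2.06, -2.82, -2.43 and -3.30 in controls. Among the day 70 runts replicate 4 lay below all controls of its day while the other 3 lay above them, and among the day 110 runts replicate 1 stood apart above the rest. By mean the order was runt day 50 (3.01), control day 50 (2.76), runt day 37 (2.42), control day 37 (2.28), runt day 70 (0.87), control day 70 (0.03), runt day 110 (-2.08) and control day 110 (-2.65), and neighbours overlapped throughout.

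In runts PDZK1IP1 did not pass between days 37 and 50 (0.59, SE 0.50, adjusted p = 0.458). It fell 4.42-fold between days 50 and 70 (-2.14, SE 0.50, adjusted p = 0.00254), with no overlap between the arrays of both days, and 7.74-fold between days 70 and 110 (-2.95, SE 0.50, adjusted p = 4.75e-05). Over the whole course it fell 22.7-fold (-4.50, SE 0.50, adjusted p = 1.97e-08), by -4.85 within slides 1 to 3 and by -4.16 within slides 4 to 9. After the normexp correction all 3 falls passed at a smaller size, at -1.47, -2.01 and -3.43. The 2 shorter falls measured -1.63 and -2.96 within slides 4 to 9. Within slides 1 to 3 they measured -3.70 and -1.80 and did not pass (adjusted p = 0.196 and 0.0903). In controls, as a description, it changed by 0.47, -2.72 and -2.69 over the 3 intervals. The annotation holds 2 entries with the symbol PDZK1IP1 on 1 chromosome, and whether the probe binds transcripts of both was not tested.

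SLC34A1 (NM_001044623) is the sodium-driven phosphate carrier of the proximal tubule, the step through which the kidney reclaims most filtered phosphate. Its probe was dim here and was well above background on 18 of the 32 arrays. It was well above background on 0 runts and 1 control at day 37, 3 runts and 4 controls at day 50, 4 runts and 3 controls at day 70, and 1 runt and 2 controls at day 110. At day 50 SLC34A1 read -3.85, -6.25, -3.28 and -4.32 in runts, against -3.29, -3.75, -2.98 and -4.34 in controls, and the runt at -6.25 was the one below background. At day 70 SLC34A1 read -3.75, -3.18, -3.64 and -2.91 in runts, against -2.71, -3.18, -3.26 and -4.06 in controls. At day 37 the range was -5.77 to -4.93 in runts and -6.83 to -4.84 in controls, and at day 110 it was -6.68 to -4.94 in runts and -6.80 to -5.14 in controls. The gene was thus measurable mainly in the middle of gestation in both fetus types. The groups of highest mean were control day 70 (-3.30), runt day 70 (-3.37), control day 50 (-3.59) and runt day 50 (-4.42), before runt day 37 (-5.31), control day 110 (-5.81), control day 37 (-5.86) and runt day 110 (-5.90), and all neighbours overlapped.

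In runts SLC34A1 fell between days 70 and 110 (-2.53, SE 0.52, adjusted p = 0.000612), with no overlap between the arrays of both days. The probe was tested only because it was above background in the groups of days 50 and 70. A fall from day 70 was thereby favoured, and its p-value is not independent of the filter. Only 1 of the 4 day 110 runts was above background, so the size of this fall rests on readings near background, and after the normexp correction it was -1.06 (adjusted p = 0.0363). The fall was -3.41 within slides 1 to 3 and -1.95, no longer past the threshold, within slides 4 to 9 (adjusted p = 0.0826). Neither earlier interval passed. Because 0 of the day 37 runts were above background, the day 50 mean was set against the background limit, which gave 1.05-fold. The change up to day 50 did not pass (adjusted p = 0.265), so no rise of any size was established. Without runt day 50 replicate 2, on which the SLC34A1 spot was below background, the comparison of days 37 and 50 passed (adjusted p = 0.0438). Its size against spots below background is not given. The change up to day 70 was 1.06 (adjusted p = 0.143), and -0.32 after the normexp correction. In controls, as a description, SLC34A1 changed by 2.27, 0.28 and -2.50 over the 3 intervals.

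SLCO3A1 (XM_001924347) is a broadly expressed carrier of organic anions such as prostaglandins and thyroid hormone. It was well above background on 28 arrays and did not pass in any interval of the runt course. Day 37 held the widest spread, with -4.15, -0.98, -3.19 and -4.50 in runts, against -3.66, -3.30, -0.25 and -4.38 in controls. A single array stood high in each fetus type, replicate 2 among runts and replicate 3 among controls. At day 50 SLCO3A1 ranged over -3.92 to -1.72 in runts and -2.28 to -1.07 in controls, at day 70 over -3.94 to -1.29 in runts and -4.96 to -3.74 in controls, and at day 110 over -3.54 to -2.52 in runts and -4.44 to -3.09 in controls. The runt means were nearly level, at -3.21, -2.85, -2.94 and -3.01 in the order of the days. Their changes were 0.36 (adjusted p = 0.788), -0.09 (adjusted p = 0.943) and -0.08 (adjusted p = 0.956), each with an SE of 0.72. The control means, at -2.90, -1.72, -4.24 and -3.50, put control day 50 first and control day 70 last among the 8 groups, and neighbours in the order of the 8 means overlapped. In controls, as a description, the changes were 1.18, -2.52 and 0.74.

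**Figure D1:**
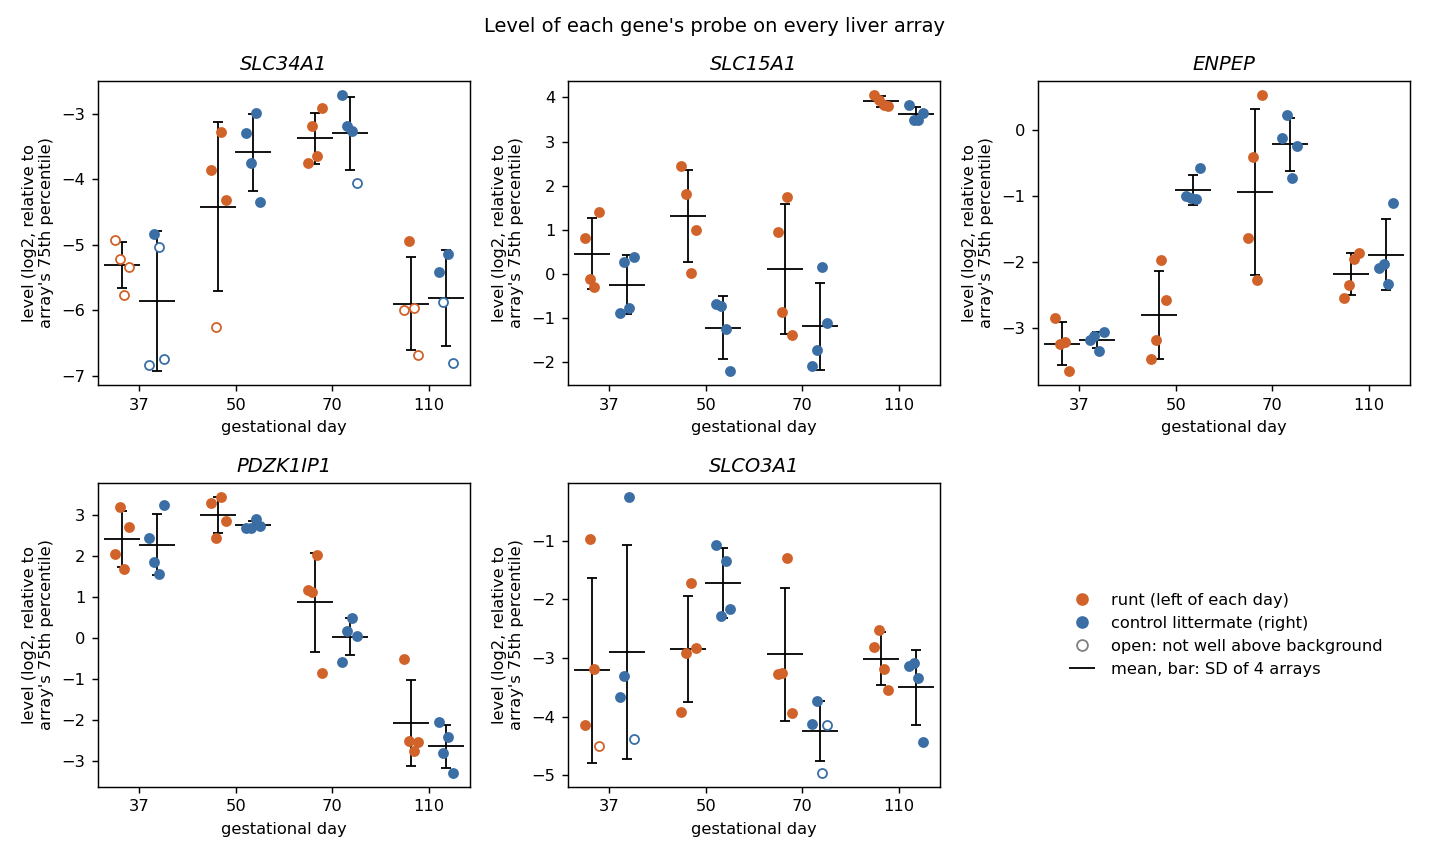
Level of each gene's probe (vertical axis, log2 relative to the 75th percentile of the array) on each of the 32 arrays by gestational day, runts left of controls, with open points for spots not well above background and bars for the mean and SD of 4 arrays. SLC15A1 lay at 3.49 or higher on all 8 arrays of day 110, while PDZK1IP1 lay at -0.52 or lower there.

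Counted over the 5 genes, 0 passed between days 37 and 50 in runts, where 5.81% of all tested probes passed and 0 of the 5 had an unadjusted p under 0.05, against 29.8% of all probes. Between days 50 and 70 it was 2 of 5, ENPEP up and PDZK1IP1 down, against 7.99% of all probes. Between days 70 and 110 it was 4 of 5, SLC15A1 up and SLC34A1, ENPEP and PDZK1IP1 down, against 11.2% of all probes. Of these, SLC34A1 met the filter only through groups of days 50 and 70. Over the whole span 3 of 5 passed, SLC15A1 and ENPEP up and PDZK1IP1 down, against 27.2%. The median change of all probes in these 4 comparisons was -0.02, 0.01, 0.05 and 0.04. The 5 genes thus moved in both directions. Over the 8 group means, SLC34A1 and ENPEP were the most alike of the 10 pairs (Pearson r = 0.77) and SLC15A1 and PDZK1IP1 the most opposed (r = -0.72). These correlations describe 8 group means that share 32 arrays, and no test is attached.

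The gap between the runt course and the control course contains the control changes that chose the genes, so its values are given as a description without p-values. Between days 37 and 50 the change of ENPEP was 0.44 in runts and 2.27 in controls, and that of SLC15A1 was 0.86 in runts and -0.97 in controls. Between days 50 and 70 SLCO3A1 changed by -0.09 in runts and by -2.52 in controls. Over all probes, the F-test of limma for a runt effect that differs between the 4 days passed 0.00341%, none of them a probe of the 5 genes. For the 5 genes this test contains the same control values, so no conclusion is drawn from it.

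**Figure D2:**
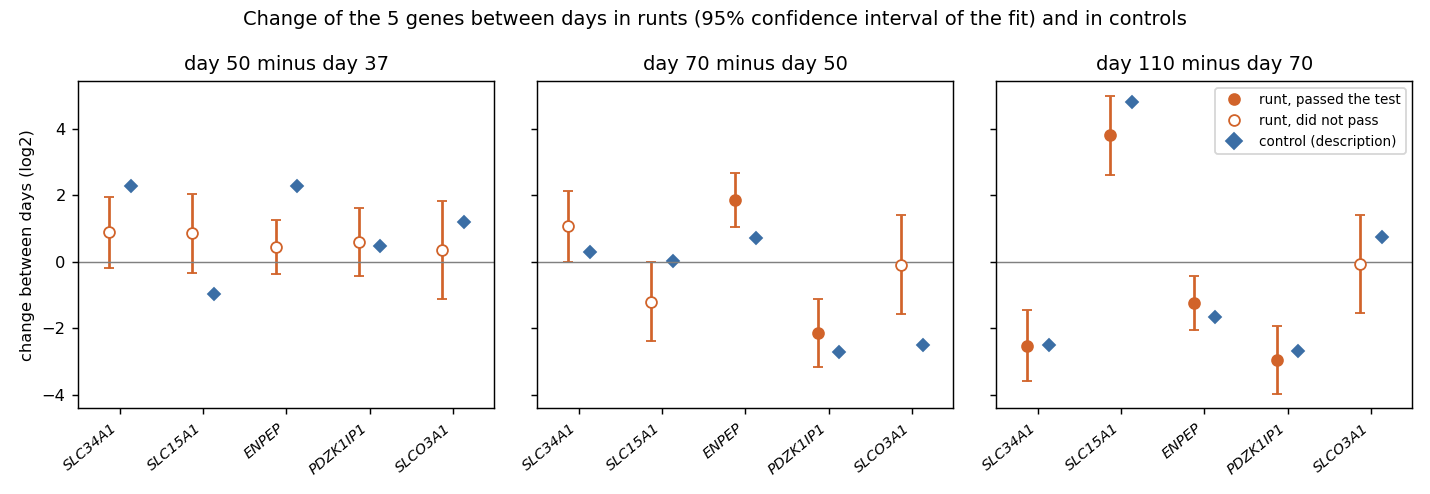
Change of each gene between neighbouring days (vertical axis, log2), runts with the 95% confidence interval of the fit and filled where the test was passed, controls as diamonds without a test because their course chose the genes, and with SLC34A1 below background on every day 37 runt. Between days 70 and 110 the change of SLC15A1 was 3.8 in runts and 4.81 in controls, and that of PDZK1IP1 was -2.95 in runts and -2.69 in controls.

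Between runts and controls, the differences of ENPEP and SLC15A1 at day 50 came closest to the threshold, in opposite directions. The control arrays compared here also took part in choosing the genes, so these p-values and intervals are not independent of that choice. The same holds for the other comparisons of runts with controls below. ENPEP was 3.72-fold lower in day 50 runts, with means of -2.80 ± 0.67 in runts and -0.91 ± 0.23 in controls (SD, n = 4 each; log2 difference -1.89, 95% confidence interval -2.71 to -1.07, adjusted p = 0.0573). SLC15A1 was 5.81-fold higher in day 50 runts, with means of 1.31 ± 1.05 in runts and -1.22 ± 0.71 in controls (SD, n = 4 each; 2.54, interval 1.35 to 3.73, adjusted p = 0.0882). For both genes the 4 runts and the 4 controls did not overlap. The share of all probes without such overlap was not counted, for this or any other comparison. Neither passed after adjustment over all probes, and 0.0817% of all probes did. At an unadjusted p under 0.05 these 2 of 5 genes stood beside 7.53% of all probes. Within slides 1 to 3, where day 50 has 1 runt and 2 controls, the differences were -1.77 for ENPEP and 2.73 for SLC15A1. Within slides 4 to 9 they were -1.87 and 2.13, and ENPEP did not pass there (adjusted p = 0.416). With slide as a block ENPEP differed by -1.66 (adjusted p = 0.668). Without the day 50 runt of the second scan session the differences of ENPEP and SLC15A1 were -1.67 (adjusted p = 0.233) and 2.16 (adjusted p = 0.345). The ENPEP difference passed with quantile normalization (-1.96, adjusted p = 0.0384) and with the authors' deposited table (-1.97, adjusted p = 0.039). After the normexp correction, which moved the median of all probes by 0.40, ENPEP differed by only -0.29 (adjusted p = 0.394), or -0.68 relative to that median, while SLC15A1 differed by 1.86 and passed (adjusted p = 0.0138). The size of the ENPEP difference thus depended on the background correction.

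The other 3 genes showed smaller differences at day 50, at -0.84 for SLC34A1 (interval -1.91 to 0.24), 0.25 for PDZK1IP1 (interval -0.76 to 1.27) and -1.13 for SLCO3A1 (interval -2.61 to 0.35). Each of these 3 changed sign after the normexp correction, at 0.92, -0.40 and 0.23, and the SLC34A1 value then passed (adjusted p = 0.0227). Among markers of other tissues, the summed level of the 4 kidney markers outside the proximal tubule ran from 0.29 to 0.441 in day 50 runts and from 0.146 to 0.234 in day 50 controls, and these ranges did not overlap. Within that list, CALB1 differed by 1.38, AQP3 by 0.73 and WT1 by -0.66, and none of the 3 passed. Hepatocyte, bile duct, gut and pancreas sums overlapped between day 50 runts and controls. A sum can hide single genes. In the hepatocyte list ALB averaged 4.85 in day 50 runts and 7.57 in day 50 controls. There 0 of the 15 hepatocyte markers passed, with a median difference of 0.22. Averaged over the 4 days, 1 of the 15 passed, lower in runts, against 0.255% of all probes. Spots that the scanner software marked as outliers numbered 24, 13, 66 and 8 on the day 50 runt arrays, against 4, 4, 6 and 3 on the control arrays. The part of these differences in the ENPEP and SLC15A1 values was not tested.

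On the other days 0 of the 5 genes passed between runts and controls, against 0% of all probes at day 37, 0% at day 70 and 0.0136% at day 110. The number with an unadjusted p under 0.05 was 0, 1 and 0 on these days, against 2.55%, 1.82% and 4.41% of all probes. That gene was SLC15A1 at day 70 (difference 1.30, interval 0.11 to 2.49, unadjusted p = 0.0335, adjusted p = 1). At day 110 the intervals were -0.89 to 1.48 for SLC15A1, -1.11 to 0.53 for ENPEP, -0.45 to 1.59 for PDZK1IP1, -1.16 to 0.99 for SLC34A1 and -0.99 to 1.97 for SLCO3A1. A 2-fold difference in at least 1 direction lay inside each of these 5 intervals.

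Averaged over the 4 days, 0 of 5 genes passed, against 0.255% of all probes, and 2 had an unadjusted p under 0.05, against 9.21%. SLC15A1 was 2.31-fold higher in runts (1.21, SE 0.29, interval 0.62 to 1.80, adjusted p = 0.0638), with a higher runt mean on all 4 days. ENPEP was 1.67-fold lower in runts (-0.74, SE 0.20, interval -1.15 to -0.33, adjusted p = 0.108), with a lower runt mean on all 4 days, although after the normexp correction the day 37 difference of -0.06 became 0.29 and the average became -0.10 (adjusted p = 0.591). PDZK1IP1 averaged 0.45 higher (adjusted p = 0.622), SLCO3A1 0.09 higher (adjusted p = 0.979) and SLC34A1 -0.11 (adjusted p = 0.961), and the SLC34A1 value was 0.51 and passed after the normexp correction (adjusted p = 0.021), which moved the median of all probes by 0.19. SLC15A1 also passed with that correction (0.86, adjusted p = 0.0201).

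**Figure D3:**
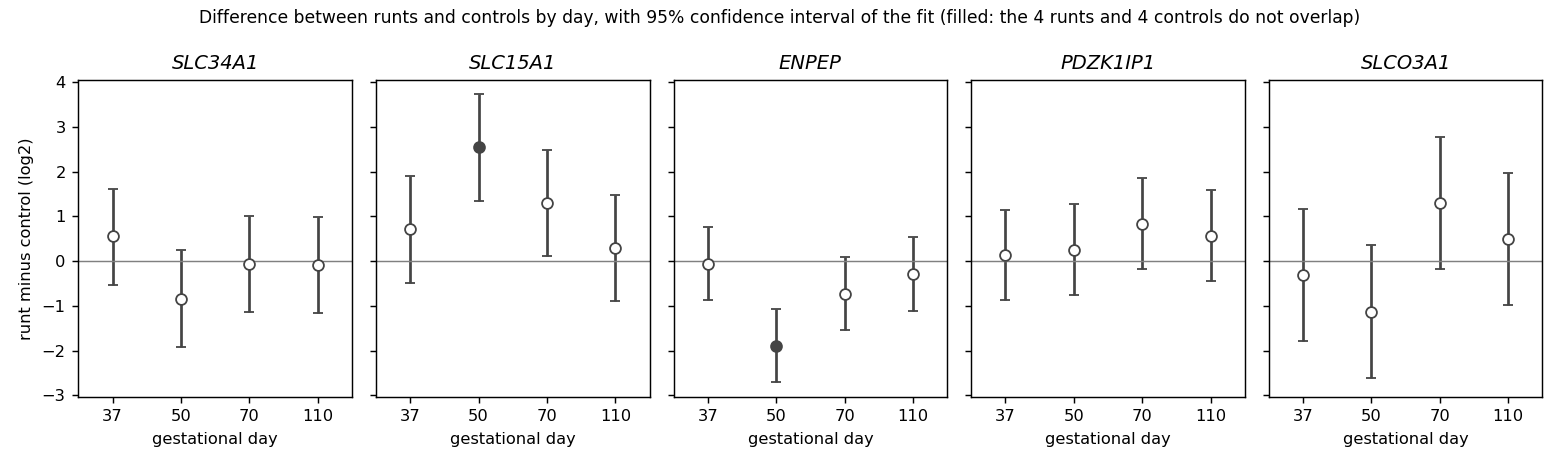
Runt minus control difference of each gene at each gestational day (vertical axis, log2) with the 95% confidence interval of the fit, filled where the 4 runts and 4 controls did not overlap. The filled points are SLC15A1 at day 50 (2.54) and ENPEP at day 50 (-1.89), and no difference passed after adjustment over all probes. The share of all probes without such overlap was not counted.

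Brush border transporters were counted from a list of 36 genes, of which 10 were on the array and 9 were tested. SLC15A1 and SLC34A1, chosen by their changes in controls, were among the 9, so the counts are not independent of that choice. In runts 1 of 9 passed between days 37 and 50, 0 between days 50 and 70, and 4 between days 70 and 110, against 5.81%, 7.99% and 11.2% of all probes. The last were SLC15A1 and the amino acid exchanger subunit SLC7A9 (1.11, adjusted p = 0.00333), which rose, and SLC34A1 and the anion exchanger SLC26A6 (-2.55, adjusted p = 3.99e-09), which fell. SLC26A6 was also the 1 that fell between days 37 and 50 (-1.04, adjusted p = 0.00494). The median change of the 9 was 0.33 between days 70 and 110, beside 0.05 for all probes. Over the whole span the glucose carrier SLC2A2 rose too (1.24, adjusted p = 6.87e-06). SLC15A2, the related peptide carrier of kidney, was well above background on all 32 arrays and passed in none of the 4 runt comparisons, and neither did SLC3A1, SLC5A1 or SLC7A7. SLC28A1, above background on 7 arrays, was not tested. Of 32 organic anion and bile transporters 6 were on the array, SLCO3A1 among them, and 0 of the 5 tested passed in any runt interval.

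Among the peptidases, some others rose together with ENPEP in runts between days 50 and 70. Of 20 listed, 9 were on the array and 8 were tested, among them ENPEP, which was chosen by its changes in controls. TMPRSS15, the intestinal enteropeptidase, was never above background. Between days 50 and 70 in runts 4 of 8 rose and 0 fell, with a median change of 1.32 beside 0.01 for all probes, of which 7.99% passed in either direction. The rise of ENPEP among these was lost after the normexp correction. Besides ENPEP, those that rose were the alanyl aminopeptidase ANPEP (1.41, adjusted p = 7.14e-05), the dipeptidyl peptidase DPP4 (1.23, adjusted p = 9.3e-05) and the angiotensin converting enzyme ACE (at least 1.16-fold, adjusted p = 0.000194, above background on 2 runts at day 70 and on 0 at day 50). Between days 70 and 110 the directions parted, since DPP4 rose further (1.45, adjusted p = 1.94e-06) while ENPEP fell. Over the whole span DPP4 (2.93, adjusted p = 1.92e-12) and XPNPEP2 (2.35, adjusted p = 0.00729, above background on 1 of the 4 day 37 runts) rose, as did ENPEP. In controls, as a description, the median change of the 8 was 0.18 between days 37 and 50, beside 2.27 for ENPEP. Between days 50 and 70 the control median was 0.77, beside 0.70 for ENPEP. ENPEP, ANPEP and ACE also stand in the list of renin-angiotensin genes, so that list repeats their values.

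Of 22 scaffold and endocytosis genes the array held PDZK1IP1 and SLC9A3R1, a scaffold of microvilli. SLC9A3R1 passed in no runt comparison. Among 15 genes of phosphate and vitamin D control, 7 were on the array and 3 were tested, while CYP27B1, PTH and STC2 were never above background. PTH1R, the parathyroid hormone receptor, rose in runts by 1.16 between days 50 and 70 (adjusted p = 0.000241) and by 1.24 between days 70 and 110 (adjusted p = 3.44e-05), the interval in which SLC34A1 fell. The secreted hormone STC1 went the other way between days 50 and 70, where it was lower (adjusted p = 0.0168). Its fold is left out there, since 0 runts of day 70 and 1 of day 50 were above background. Between days 70 and 110 STC1 rose at least 1.38-fold (adjusted p = 4.4e-05). In none of these lists did a gene pass between runts and controls at any day or on average.

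**Figure D4:**
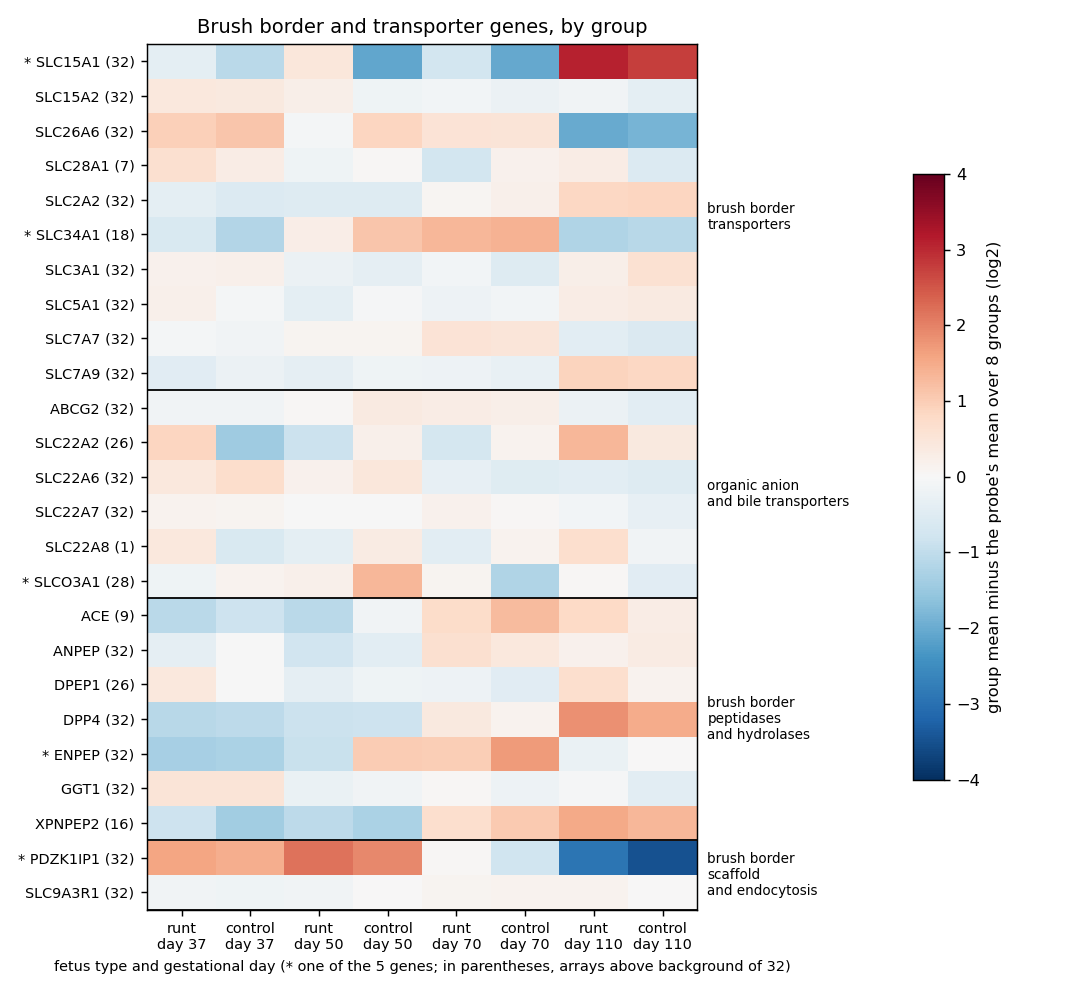
Group mean of brush border and transporter genes, each minus its mean over the 8 groups (colour, log2), with runt left of control at each gestational day and the number of arrays above background in parentheses. SLC15A1 was highest at day 110, PDZK1IP1 lowest there, and ENPEP and XPNPEP2 lay above their own mean at day 70 in both fetus types.

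Markers of kidney and gut cells were sought because SLC34A1, SLC15A1, ENPEP and PDZK1IP1 are best known from those tissues. Of 17 kidney markers outside the proximal tubule 4 were on the array, SLC12A1 of the loop of Henle was never above background, and the summed level stayed between 0.0655 and 0.863 in all groups. Of 21 gut markers 6 were on the array. FABP2, the intestinal fatty acid binding protein, was above background on 3 of 32 arrays and FABP6 on 1. The gut sum ran from 2.29 to 6.81 in day 110 runts, against 1.08 to 1.67 in day 70 runts, without overlap, in the interval in which SLC15A1 rose. CCK, a peptide hormone of gut and brain, passed in that interval (2.67, adjusted p = 0.0129), and 3 of the 4 tested gut markers rose over the whole span, in which 27.2% of all probes passed. Of 16 pancreas markers 10 were on the array, INS and GCG were never above background, and the sum ran from 1.32 to 2.85 in day 110 runts, against 5.65 to 12.4 in day 37 runts. Of the 6 pancreas markers tested, the phospholipase PLA2G1B (-5.06, adjusted p = 2.07e-09) and the lipase cofactor CLPS (-2.17, adjusted p = 0.00142) fell across that span, and the carboxypeptidase CPA1 rose (2.73, adjusted p = 0.00138). The part of these markers in the changes of the 5 genes was not tested.

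Markers of red cells and of several other cell types moved in the interval in which PDZK1IP1, SLC34A1 and ENPEP fell. All 4 erythroid markers on the array, of 16 listed, fell in runts between days 70 and 110, with a median change of -3.98, where 11.2% of all probes passed. Their summed level was 1.79 to 7.53 in day 110 runts, against 60.2 to 89.9 in day 70 runts. Between days 50 and 70, when PDZK1IP1 also fell in runts, 0 of the 4 passed and their sum was 60.2 to 89.9 at day 70, against 58.5 to 103 at day 50. All 5 granulocyte markers also fell between days 70 and 110, with a sum of 14.7 to 53.9 in day 110 runts, against 158 to 219 in day 70 runts. Of 5 megakaryocyte markers 4 fell and 1 rose in runts, and their sum was 14.5 to 15.8 in day 110 runts, against 44.1 to 55.4 in day 70 runts. Markers of the macrophage lineage and of vessels went up in that interval. Of 9 Kupffer cell and monocyte markers 6 rose in runts, with a sum of at least 141 on each day 110 runt array, against 54.1 to 72.9 in day 70 runts. Of 6 endothelial markers 3 rose in runts, with a sum of 47.5 to 70.8 at day 110, against 25.9 to 31.3 at day 70. Between days 50 and 70, when ENPEP rose and PDZK1IP1 fell in runts, 6 of the 9 Kupffer cell and monocyte markers rose as well. Their sum was 54.1 to 72.9 in day 70 runts, against 30.8 to 34.7 in day 50 runts. In that earlier interval 5 of 10 lymphocyte markers rose and 1 fell, where 7.99% of all probes passed in either direction.

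Of 12 bile duct markers 6 were on the array. EPCAM, an adhesion protein of bile duct epithelium, rose in every runt interval (1.25, 1.11 and 1.08), while the water channel AQP1, which bile duct cells share with red cells and vessels, fell between days 50 and 70 (-1.17, adjusted p = 0.0155) and between days 70 and 110 (-3.45, adjusted p = 1.6e-08). The bile duct sum was 21.4 to 23.8 in day 110 runts, against 15.3 to 19.7 in day 70 runts. The part of any of these cell types in the values of the 5 genes was not tested.

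**Figure D5:**
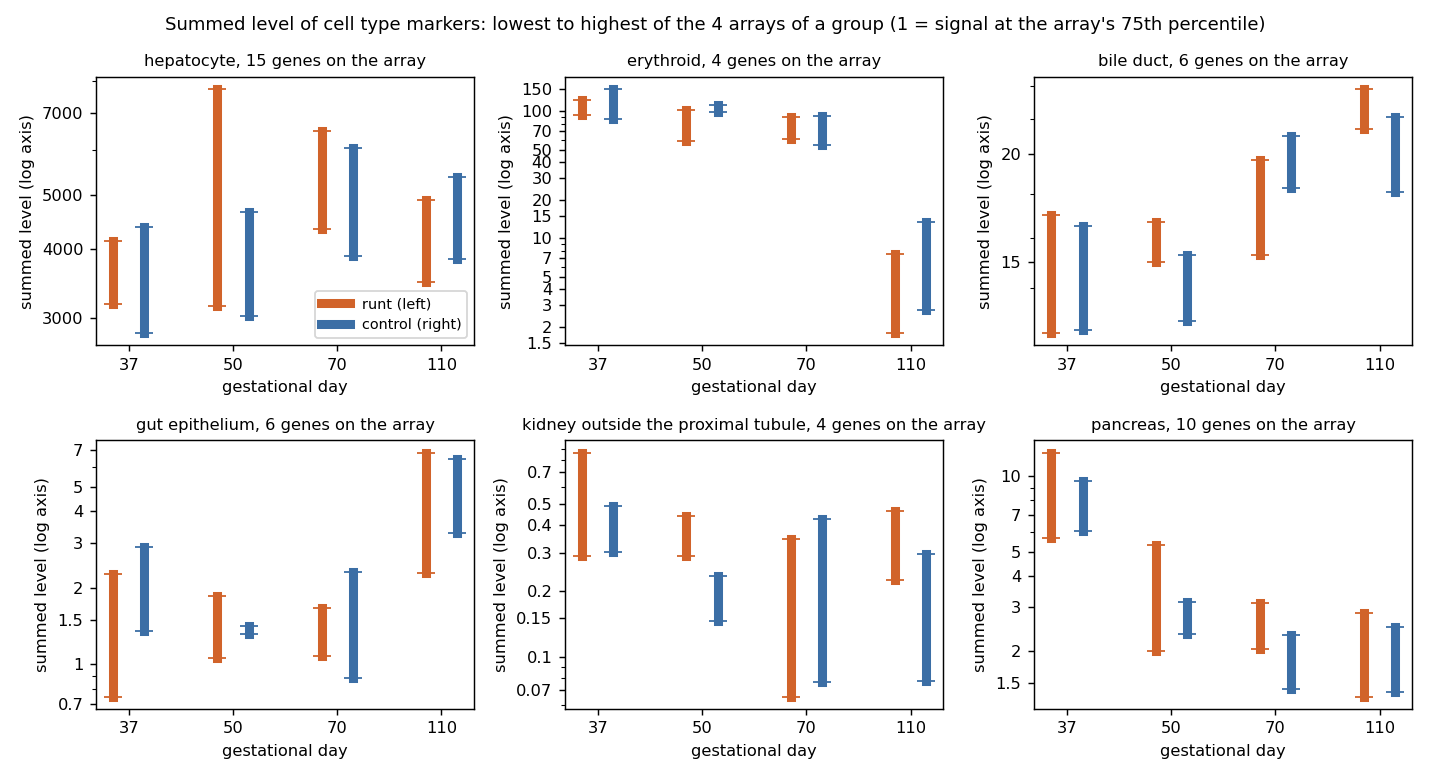
Summed level of the markers of each cell type (vertical log axis, where 1 is the signal at the array's 75th percentile) by gestational day, runts left of controls, drawn from the lowest to the highest of the 4 arrays of a group. The erythroid sum was 1.79 to 7.53 in day 110 runts, against 60.2 to 89.9 in day 70 runts. The kidney sums of day 50 runts and controls did not overlap. They rest on 4 genes with low signal, 1 of them never above background, and 0 of the 3 tested passed.

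Genes with the most similar profile were sought among 1595 others with a symbol, by correlation over the 8 group means, which share the arrays of each group. For SLC15A1 they were CKM, the creatine kinase of muscle (r = 0.985, Spearman rho = 0.952), PDK4, an inhibitor of pyruvate oxidation (r = 0.963, rho = 0.952), and ADM, the vasodilator adrenomedullin (r = 0.954, rho = 0.881). For PDZK1IP1 they were SUMO4 (r = 0.988, rho = 0.81), the fatty acid receptor CD36 (r = 0.987, rho = 0.952) and AMH (r = 0.981, rho = 0.786). ENPEP was followed most closely by MS4A2, a chain of the IgE receptor (r = 0.949, rho = 0.929), PAQR7 (r = 0.931, rho = 0.952) and CD47 (r = 0.925, rho = 0.905). SLC34A1 had LOC396867 (r = 0.959, rho = 0.976), LOC396866 (r = 0.955, rho = 0.976) and the efflux pump ABCG2 (r = 0.946, rho = 0.833) at the top. SLCO3A1 had ADRA2A (r = 0.963, rho = 0.786), GLRX (r = 0.792, rho = 0.595) and AMBN (r = 0.789, rho = 0.476). For SLCO3A1 the likeness came from the control groups, since the correlation over the 4 runt groups was -0.323, -0.316 and -0.893 for these genes, against 0.996, 0.875 and 0.986 over the 4 control groups.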

How the data were processed

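Liver RNA of 32 pig fetuses was measured on 1-colour Agilent arrays. Per the file headers, the deposited intensity is the processed signal of Feature Extraction 10.7.3.1, corrected for background. A second table deposited by the authors holds log2 values. Partek is named in the submitters' processing notes, and its version is not given in the sources used here. This table correlated with the scanner signal at 0.993 to 1 and served as an alternative.

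Control spots and outlier spots were left out. Levels are log2 signal minus the log2 of each array's 75th percentile, and spots of a probe were averaged. Accessions without versions were matched to the Sscrofa11.1 annotation, which named 2683 of 43603 probes. Probes well above background on at least 3 of 4 arrays of a group were tested (29361). A dim probe could thus enter through the groups where it was high, and its changes to or from those groups are not independent of this filter. One mean for each of 8 groups was fitted with limma 3.58.1 in R 4.3.3, with two-sided tests and Benjamini-Hochberg adjustment over all tested probes. A probe passed at an adjusted p under 0.05, and for changes between days also at 2-fold or more. The fit was tested on simulated data. P-values treat littermates as independent.

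The 5 genes, the gene lists and the rule for named genes were chosen with earlier results of these data known. That rule names every probe of the 5 genes, the 3 genes with the highest Pearson correlation to each over group means, and list members that passed in a runt interval, at most 3 each way. Other genes are named where their list or a count needs them, after their values were seen. A fold against a group without any array above background is given as a lower bound against the background limit. Alternatives were normexp background correction (offset 50, on median signals, because the mean signal column is not used here), quantile normalization, the authors' table, other filters, slide and replicate blocks, slide subsets and leaving out each array. Leaving out the second scan session was added after seeing the data. No sequence or genome position is given, and 1 gene of the lists is not reported here.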

Additional observations from a re-analysis of the deposited data

Results flagged for a closer look

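Each group of 4 arrays was examined for 1 array far from the other 3, measured as its gap to the nearest array divided by the range of the group. Over the 40 groups of 5 genes, 3 exceeded the critical value for 4 arrays, and chance alone marks about 1 group in 20. In day 110 runts, PDZK1IP1 of replicate 1 at -0.52 stood above the others at -2.51 to -2.76 (gap share 0.887). In day 50 controls, ENPEP of replicate 4 at -0.57 stood above -1.05 to -1.0 (gap share 0.891). In day 50 controls, PDZK1IP1 of replicate 3 at 2.91 stood above 2.69 to 2.73 (gap share 0.83), within a group whose SD was 0.10.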

How the results depend on the processing

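Replicate numbers were not shown to mark litters. The deviations of same-numbered runts and controls of a day correlated over 0.1 in 13 of 16 cases (from -0.089 to 0.429). With the replicate number as a block, 2 of the 5 genes passed at day 50 between runts and controls (ENPEP, adjusted p = 0.0349, and SLC15A1, adjusted p = 0.0314) and 1 passed for the mean runt effect (SLC15A1, adjusted p = 0.0281), against 0 and 0 without it, and no other call of the 5 genes changed. For day 50, 1 gene passed with the authors' deposited table (ENPEP, -1.97, adjusted p = 0.039), 1 with quantile normalization (ENPEP, -1.96, adjusted p = 0.0384) and 1 with probes above background on all 32 arrays (ENPEP, adjusted p = 0.0339). With that filter 1 also passed for the mean effect (SLC15A1, adjusted p = 0.0414). In other settings ENPEP did not pass at day 50. With slide as a block it differed by -1.66 (adjusted p = 0.668), and 0 of all probes passed. Within slides 4 to 9 its adjusted p was 0.416, and with no filter on dim probes it was 0.0904. Control arrays in all these comparisons also took part in choosing the genes, so the p-values are not independent of that choice. The normexp correction moved the median of all probes, by 0.40 at day 50 and 0.19 for the mean runt effect, and passed 17409 and 14125 probes there. With it 2 genes, SLC15A1 and SLC34A1, passed at day 50 and for the mean effect. SLC34A1 turned positive in both (0.92 and 0.51, or 0.53 and 0.32 relative to the shift), and ENPEP shrank to -0.29 and -0.10 (-0.68 and -0.28 relative to it). Between days 50 and 70 in runts 1 gene passed with normexp, PDZK1IP1, and ENPEP was lost (0.63, adjusted p = 0.165). ENPEP from day 37 to day 110 was lost as well (0.13). Within slides 1 to 3, 0 genes passed between days 50 and 70, and within slides 4 to 9, 2 passed between days 70 and 110. These subsets hold 1 to 3 arrays a group, with the spread pooled over groups, and a lone array is assumed to vary like the others. Other causes were not tested.

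Leaving out each array in turn gave 0 to 2 passing genes for the mean runt effect, 0 to 1 for runts between days 37 and 50, and 0 to 2 at day 50 between runts and controls. The p-values of runts against controls here are again not independent of the choice of the genes, which used the control arrays. At day 50 ENPEP passed without runt day 50 replicate 3 (adjusted p = 0.0184) and without runt day 70 replicates 3 (0.021) or 4 (0.0111), and SLC15A1 passed without runt day 50 replicate 3 (0.0231) or runt day 70 replicate 3 (0.0465). The mean effect of SLC15A1 passed without runt day 37 replicate 3 (0.0422), runt day 50 replicate 3 (0.0292), control day 70 replicate 3 (0.0271) or runt day 70 replicate 4 (0.0234), and that of ENPEP without runt day 70 replicate 4 (0.018). The fall of ENPEP after day 70 was lost without runt day 70 replicates 2 (adjusted p = 0.0865) or 4 (0.139) or runt day 110 replicates 1 (0.0671) or 2 (0.0519), and its rise from day 37 to day 110 without runt day 37 replicate 4 (0.0818) or runt day 110 replicates 3 (0.0649) or 4 (0.0732).

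Counts over all probes moved more. For the mean runt effect, 75 probes passed, against 113 with quantile normalization, 123 with the strict filter, 46 with no filter, 1 with slide as a block, 0 and 24 within the slide sets, 198 with the replicate block and 39 to 179 with 1 array left out. At day 50 it was 24, against 47 with the authors' table, 49 with quantile normalization, 39 with the strict filter, 15 with no filter, 0 with slide as a block, 0 and 1 within the slide sets, 58 with the replicate block and 5 to 71 with 1 array left out, 6 of them without the second scan session. At day 110 it was 4, with 0 to 2 under normexp, the strict filter, the slide block and the slide sets, and 1 to 12 with 1 array left out. For the F-test it was 1, with 0 to 2 elsewhere. In the runt course, normexp passed 819, 1684 and 3773 probes against 2345, 3302 and 7983 for days 50 to 70, 70 to 110 and 37 to 110, and the strict filter 1187, 1881 and 4782. Between days 37 and 50 it was 1706, against 711 with that filter and 0 and 300 within the slide sets. Slides 1 to 3 gave 0 and 1252 probes for days 50 to 70 and 70 to 110. SLC34A1 was limited by signal, since 14 of its 32 spots were not well above background.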
